A study of Rattus norvegicus with 14 samples.

Results

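Axon regeneration-associated genes are genes whose transcripts mark neurons that regrow an axon. The set described here has 10 genes, chosen by symbol: 3 growth proteins (Gap43, Basp1 and Stmn2) and 7 injury factors (Sprr1a, Atf3, Sox11, Klf6, Klf7, Smad1 and Stat3). All 10 were measured, by 11 of the 68842 tested probe sets, and 22093 genes were measured in all. A probe set is the group of array probes that reads 1 transcript. Basp1 has 2 probe sets and is represented by the one with the higher mean over all arrays. By RefSeq, Basp1, Stmn2 and Sprr1a lie on chromosome 2, Sox11 on 6, Klf7 on 9, Stat3 on 10, Gap43 on 11, Atf3 on 13, Klf6 on 17 and Smad1 on 19.

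RNA came from motor cortex, the region whose corticospinal neurons send axons into the cord, of male rats whose spinal cord had been injured. In the MSC group 7 samples were labelled as MSC transplantation, and in the vehicle group 7 were labelled as vehicle transplantation, both given into the femoral vein 24 hours after injury. Tissue was taken 3 days after the infusion. Both groups were injured and both received cyclosporine A, an immunosuppressant, every day, so the comparison concerns the infusion and not the injury. The labels do not spell out MSC, which commonly stands for mesenchymal stem cell. The sources used here give neither the strain and age of the rats nor the source of the cells. No label ties an array to a rat of its own, so p-values measure the spread between samples, some of which may be technical. For MSC replicate 7, the description field reads vehicle while the title, source name and treatment read MSC; the sample was kept in the MSC group.

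In peripheral neurons, a cut axon switches on a programme that returns the cell to a growth state. Transcription factors such as ATF3, SOX11, STAT3 and SMAD1 act early in it, and proteins of the growth cone, such as GAP-43, carry it out. Adult neurons of the brain mount this programme weakly after injury in the distant cord. Several members, Gap43 and Stmn2 among them, are also expressed in uninjured cortex, where they serve synapses and the cytoskeleton of axons.

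Promoter windows from RefSeq (build GRCr8, 250 bases before to 50 after the gene's start) were found for 7 of the 10 genes and not for Gap43, Stmn2 and Atf3. They were searched on both strands for the AP-1 element TGANTCA, bound by dimers that hold a Jun family protein, and the cAMP response element TGACGTCA. The STAT element TTCNNNGAA, the GC box GGGCGG and the TATA box TATAAA were searched for as well. Sprr1a is shown because it carries the AP-1 and TATA letters, and Basp1 because it carries the most GC boxes of the 7. Capitals mark the matches. Both windows lie on the minus strand, Sprr1a at chr2:180752576-180752875 and Basp1 at chr2:77594248-77594547, and both are written 5′ to 3′ in the direction of transcription.
Sprr1a: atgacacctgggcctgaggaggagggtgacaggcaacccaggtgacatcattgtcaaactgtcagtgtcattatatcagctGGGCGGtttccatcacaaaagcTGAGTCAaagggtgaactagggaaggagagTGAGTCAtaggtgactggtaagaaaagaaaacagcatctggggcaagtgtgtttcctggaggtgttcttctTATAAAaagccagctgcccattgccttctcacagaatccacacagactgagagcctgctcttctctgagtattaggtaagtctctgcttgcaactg
Basp1: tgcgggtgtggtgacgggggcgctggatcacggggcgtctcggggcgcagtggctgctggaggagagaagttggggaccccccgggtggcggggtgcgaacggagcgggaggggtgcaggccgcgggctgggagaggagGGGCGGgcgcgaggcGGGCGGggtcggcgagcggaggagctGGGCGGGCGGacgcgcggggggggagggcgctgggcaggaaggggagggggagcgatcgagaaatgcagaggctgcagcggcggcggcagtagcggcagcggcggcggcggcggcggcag
Sprr1a was the only 1 of the 7 with the AP-1 letters, at -147 and -117 from the start, and also the only one with a TATA box, at -46. The AP-1 letters are in 7.33% of the 33469 rat windows and the TATA letters in 14.2%. The Basp1 window holds 4 GC boxes, the last pair overlapping, in a sequence of 78.3% G and C, against 48.3% in Sprr1a. GC boxes were in 6 of the 7 windows (all but Stat3) and in 33.1% of all windows. The cAMP response and STAT letters were in 0 of the 7, against 1.83% and 8.87% of all windows. These matches describe letters in a window and say nothing of binding.

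Expression values are log2 signals made with RMA (robust multi-array average), so a difference of 1 is a 2-fold change, and levels are compared only within a probe set. The mean of 9 neuron markers ran from 14.94 to 15.37 per array in MSC and from 14.88 to 15.12 in vehicle arrays, and that of 7 markers of peripheral sensory neurons and Schwann cells from 5.49 to 5.62 in MSC and from 5.49 to 5.58 in vehicle arrays. These levels lie on different probe sets, most of the neuron markers are shared by all brain regions, and neither list shows by itself which tissue was taken. Choroid plexus markers set MSC replicate 4 and vehicle replicate 2 apart (list means of 10.12 and 10.08, against at most 7.24 on the other arrays), striatal markers set MSC replicate 6 apart (8.59, against at most 7.85), and meningeal markers set MSC replicate 2 and vehicle replicate 2 apart (9.61 and 9.37, against at most 8.61). The spike-in control dap was dimmer on replicates 6 and 7, in MSC and vehicle alike, with signals of 7.45 to 8.12 there and 8.35 to 9.92 elsewhere, and no label names a batch. The genes were also compared without the 3 arrays of choroid or striatal signal, without these and MSC replicate 2, and within the spike-in sets.

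The question was whether these genes differ in motor cortex between MSC and vehicle rats. None did beyond the spread between arrays. With limma over all probe sets, 0 of the 10 genes passed an adjusted p of 0.05, every adjusted p being 0.9999, against 0% of all probe sets. An unadjusted p below 0.05 was found for 1 gene (Atf3, lower in MSC), against 3.41% of all probe sets in either direction and 2.41% lower in MSC. With 1 probe set per gene, as for the members, the share in either direction was 2.77% of all genes. In 0 of the 10 genes were the groups free of overlap, as in 0.032% of all probe sets. Means were higher in MSC for 5 genes and lower for 5, against 42% of all probe sets higher and 58% lower. Among all genes, with 1 probe set each, 47.6% were higher. The median difference over all probe sets was -0.015, and it became 0.0028 after another quantile normalization and 0.0010 with equal array medians, so that a negative difference nearer 0 than this shift can change sign with the scaling alone. In bulk tissue, fewer cells of a type and less RNA per cell cannot be told apart.

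The intervals also show how large a difference in the RMA values could have been. For all 10 genes the 95% interval of the difference lay within 1.5-fold in either direction, as it did for 97.7% of all genes. The widest, that of Sprr1a, reached 1.48-fold. RMA pulls differences of dim probe sets towards 0, so a narrow interval around a dim gene such as Atf3 does not bound the change in its transcript.

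Growth proteins stood at nearly the same level in both groups. Their median difference, MSC minus vehicle, was 0.019 on the log2 scale, with single values between -0.0049 and 0.12. That median ran from -0.044 without MSC replicate 7 to 0.11 without vehicle replicate 7, and was 0.10 without MSC replicate 3. Gap43, a membrane protein of growth cones and presynaptic endings that is phosphorylated by protein kinase C, ran from 11.11 to 11.95 in MSC arrays (median 11.60) and from 11.20 to 12.07 in vehicle arrays (median 11.53). The highest array of each group was its replicate 7, and the ranges largely coincided. The difference was 0.019 ± 0.14 (SE, 7 arrays each; 95% interval -0.27 to 0.31), which allows at most a 1.24-fold higher or a 1.21-fold lower level in MSC. Its sign turned when single arrays were left out, to -0.044 without MSC replicate 7.

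Basp1 encodes a myristoylated protein, also called CAP-23 or NAP-22, that like GAP-43 gathers at the phosphoinositide-rich inner face of the growth cone membrane. It ran from 13.75 to 14.90 in MSC arrays (median 14.59) and from 14.09 to 14.93 in vehicle arrays (median 14.44). MSC replicate 3 was the lowest of all arrays, and replicate 7 was again the highest in each group. The difference was -0.0049 ± 0.17 (SE; 95% interval -0.37 to 0.36), and 0.11 without MSC replicate 3. The dimmer Basp1 probe set has an ID placed on chromosome 9, while RefSeq places the gene on chromosome 2, so it may read a copy. It ran from 6.28 to 7.05 in MSC and from 6.30 to 6.60 in vehicle arrays, with a difference of 0.14 ± 0.11 (SE). Averaging both probe sets gave 0.070 and so turned the sign of the gene's difference.

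Stmn2, or SCG10, is a neuron-specific stathmin that destabilises microtubules in the growth cone. It ran from 16.50 to 17.01 in MSC arrays (median 16.84) and from 16.52 to 17.12 in vehicle arrays (median 16.62). In 6 of 7 MSC arrays it lay above the vehicle mean, yet the highest array of all was vehicle replicate 5. The difference of 0.12 ± 0.10 (SE; 95% interval -0.097 to 0.34, unadjusted p = 0.25 in limma) was the largest positive one among the 10 genes. Leaving out any array kept it between 0.092 and 0.19. Its signal is among the brightest on the array, at the 97.2th percentile of probe sets, and whether it was compressed there was not tested. Neuron markers had higher means in MSC in 8 of 9 (0 lower under either other scaling), with a median difference of 0.087. Over the 14 arrays, with group means removed, Stmn2 and the neuron mean had r = 0.50 (permutation p = 0.067, adjusted p = 0.56). Their rho was 0.44 (permutation p = 0.125, adjusted p = 0.84), and r was 0.71 without MSC replicates 3 and 5. The part of the neuron markers in the Stmn2 difference was not tested.

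**Figure D1:**
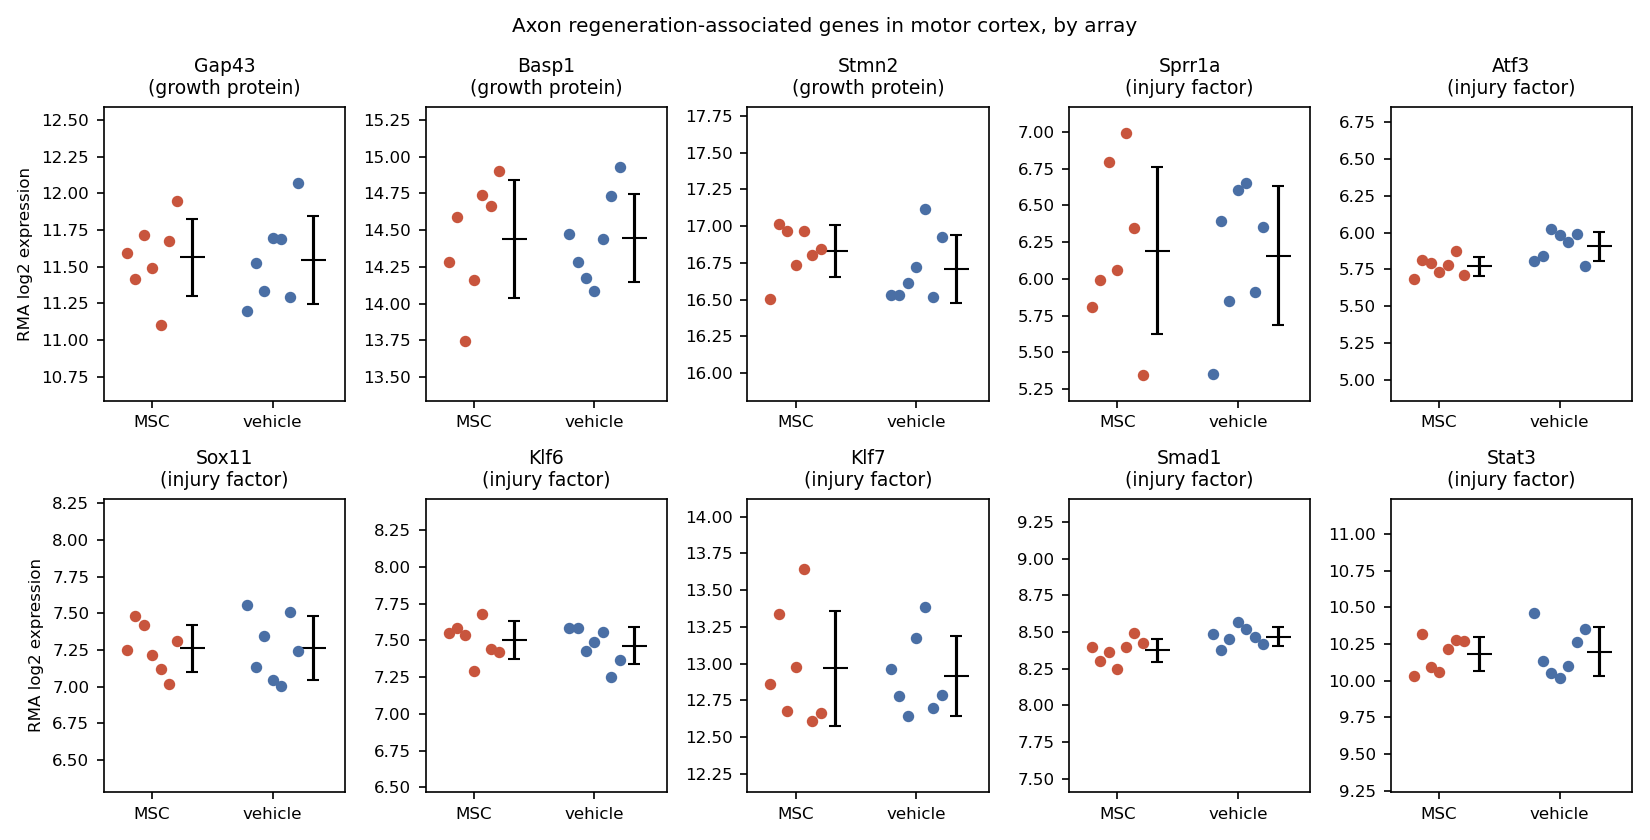
RMA log2 expression (y axis, each panel spanning 2 units) of the 10 genes on 7 MSC arrays (left, red) and 7 vehicle arrays (right, blue), replicates 1 to 7 from left to right, with mean and SD beside them. The groups overlap in every panel; Atf3 and Smad1 have the tightest points, and in Atf3 all 7 MSC arrays lie below the vehicle mean.

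Among the injury factors the median difference was -0.00068, with 3 genes higher and 4 lower in MSC and a range from -0.14 to 0.049. That median was 0.015 under either other scaling, 0.035 without the 3 arrays of choroid or striatal signal, -0.0061 without MSC replicate 2 as well, -0.088 within replicates 6 and 7 and -0.064 without MSC replicate 5. Atf3 is a basic leucine zipper factor that is nearly absent from resting neurons and strongly induced when their axon is cut. It ran from 5.68 to 5.88 in MSC arrays (median 5.78) and from 5.78 to 6.03 in vehicle arrays (median 5.93). All 7 MSC arrays lay below the vehicle mean and 3 lay below the lowest vehicle array, but the ranges overlapped. The difference was -0.14 ± 0.054 (SE; 95% interval -0.25 to -0.024), a 1.10-fold higher level in vehicle, with an unadjusted p of 0.021 and an adjusted p of 0.9999 in limma. It kept its sign in every fit in which it was measured, from -0.18 to -0.088, and was -0.10 with MSC replicate 7 counted as vehicle (unadjusted p = 0.097). Its mean of 5.84 equals the median of all probe sets to the printed digits, so Atf3 was read from dim signal.

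Partners that form dimers with ATF3 or act beside it were examined as a list, and 0 of 12 measured ATF, AP-1 and C/EBP genes passed the adjusted threshold. Of the 12, Atf3 included, 10 had lower means in MSC (9 after another quantile normalization or equal array medians), with a median of -0.053 against -0.0038 over all genes. Junb, an AP-1 subunit of the immediate early response, ran from 6.06 to 7.40 in MSC (median 6.66) and from 6.74 to 7.77 in vehicle arrays (median 7.30), a difference of -0.56 ± 0.21 (SE, unadjusted p = 0.019 in limma). Jun, the AP-1 subunit that pairs with ATF3 in injured sensory neurons, ran from 7.38 to 8.18 in MSC and from 7.53 to 8.80 in vehicle arrays, a difference of -0.33 ± 0.18 (SE). Immediate early genes, which follow neuronal activity within minutes, had lower means in 11 of 14. Junb included, 6 of the 14 were lower at an unadjusted p below 0.05 in limma and 0 higher, against 2.77% of all genes in either direction. This list, like the others, was chosen with earlier results of these data known. The list mean per array ran from 7.87 to 9.51 in MSC (median 8.85) and from 8.87 to 9.59 in vehicle arrays (median 9.33). Over the 14 arrays, with group means removed, Atf3 and that list mean had r = 0.43 (permutation p = 0.083, adjusted p = 0.62) and rho = 0.41 (permutation p = 0.12, adjusted p = 0.84), and r = 0.29 without MSC replicates 4 and 6. The part of these genes in the Atf3 difference was not tested.

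Sprr1a, a small proline-rich protein first known from skin and induced by injury in sensory neurons, varied most. Its mean over all arrays, 6.18, lay at the 56.3th percentile of probe sets, not far above their median of 5.84. What its spread at this low signal reflects was not tested. It ran from 5.35 to 6.99 in MSC arrays (median 6.06) and from 5.36 to 6.65 in vehicle arrays (median 6.35). MSC replicates 5 and 3 were high and MSC replicate 7 and vehicle replicate 1 low, and the groups overlapped over almost their whole range. The difference was 0.032 ± 0.25 (SE; 95% interval -0.50 to 0.56), from -0.10 without vehicle replicate 1 to 0.17 without MSC replicate 7. Its relatives share proline-rich repeats, and whether the probes read more than 1 of them was not tested. Of the 3 measured relatives, Sprr2d differed by 0.051 and Sprr1b by 0.040, and 0 passed.

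Sox11 is a SoxC factor of immature neurons that promotes axon growth when raised in adult ones. It ran from 7.02 to 7.48 in MSC arrays (median 7.25) and from 7.01 to 7.55 in vehicle arrays (median 7.24). The groups were all but superimposed, with a difference of -0.00068 ± 0.097 (SE; 95% interval -0.21 to 0.21) which is smaller than the shift of all probe sets under another scaling. It was 0.035 without the 3 arrays of choroid or striatal signal and -0.0061 without MSC replicate 2 as well. The other SoxC genes gave 0.15 for Sox4 and -0.096 for Sox12, and neither passed.

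Klf6 and Klf7 belong to the zinc finger family in which members either promote or restrain neurite growth; these 2 promote it. Klf6 ran from 7.29 to 7.68 in MSC arrays (median 7.54) and from 7.25 to 7.59 in vehicle arrays (median 7.49). Klf7 ran from 12.61 to 13.64 in MSC arrays (median 12.86) and from 12.64 to 13.38 in vehicle arrays (median 12.78). Replicate 5 of each group was the highest array for Klf7. The differences were 0.037 ± 0.070 for Klf6 (SE; 95% interval -0.11 to 0.19) and 0.049 ± 0.16 for Klf7 (-0.30 to 0.39), and that of Klf7 was -0.064 without MSC replicate 5. Of 13 measured KLF genes, Klf6 and Klf7 included, 0 passed, with 5 higher and 8 lower means in MSC (7 lower under either other scaling) and a median of -0.022. The lowest were the growth-restraining Klf4 (-0.31 ± 0.17, SE) and the endothelial Klf2 (-0.25 ± 0.17). Endothelial markers had lower means in MSC in 6 of 6 (5 of 6 with equal array medians), with a mean per array from 8.56 to 9.01 in MSC and from 8.76 to 9.32 in vehicle arrays, a median difference of -0.15 and Cldn5 at -0.30 ± 0.093 (SE), and their part in the KLF values was not tested. Klf6 and the endothelial mean had r = 0.64 (permutation p = 0.018, adjusted p = 0.35) and rho = 0.67 (permutation p = 0.013, adjusted p = 0.35), and r = 0.51 without MSC replicate 4 and vehicle replicate 2.

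Smad1 transmits signals of bone morphogenetic proteins (BMP) from their receptors to the nucleus and is required for sensory axon regrowth in mice. It ran from 8.25 to 8.49 in MSC arrays (median 8.39) and from 8.38 to 8.57 in vehicle arrays (median 8.46). Although 6 of 7 MSC arrays lay below the vehicle mean and 3 below the lowest vehicle array, the ranges overlapped. The difference was -0.093 ± 0.050 (SE; 95% interval -0.20 to 0.012, unadjusted p = 0.079 in limma). It was -0.11 (unadjusted p = 0.037) without MSC replicate 6, -0.14 within replicates 1 to 5 and 0.019 within replicates 6 and 7, the arrays with the dimmer spike-in. Smad1 and the choroid plexus mean had r = -0.64 (permutation p = 0.031, adjusted p = 0.42) and rho = -0.27 (permutation p = 0.34, adjusted p = 0.89), and r = 0.23 without MSC replicate 4 and vehicle replicate 2. Without these arrays and MSC replicate 6 the difference of Smad1 was -0.11.

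Around Smad1, 0 of 8 SMAD genes and 0 of 12 genes of BMP ligands, receptors, the antagonist Noggin and Id targets passed. SMAD genes had 4 higher and 4 lower means (3 lower under either other scaling) and a median of -0.0016, and Smad2 at -0.075 and Smad3 at 0.11 had the smallest p after Smad1. Id2, a transcriptional inhibitor among the targets of SMAD1, ran from 12.25 to 13.03 in MSC (median 12.39) and from 12.41 to 13.24 in vehicle arrays (median 13.08), a difference of -0.40 ± 0.15 (SE, unadjusted p = 0.016 in limma). The list as a whole had 7 higher and 5 lower means (3 lower under either other scaling) and a median of 0.035. Bmpr1b, a BMP receptor, followed Id2 in order of p, at -0.15 ± 0.087 (SE).

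Stat3 carries signals of the gp130 cytokines, such as LIF, CNTF and IL-6, and in brain is strongest in reactive astrocytes as well as acting in injured neurons. It ran from 10.03 to 10.32 in MSC arrays (median 10.22) and from 10.02 to 10.46 in vehicle arrays (median 10.14). The 2 highest arrays were vehicle replicates 1 and 7. The difference was -0.016 ± 0.076 (SE; 95% interval -0.18 to 0.15). Of the 13 cytokines, receptors, kinases and the inhibitor Socs3 in this pathway, 0 passed, 7 means were higher and 6 lower in MSC (3 lower under either other scaling), and the median was 0.0012. The receptors Lifr (-0.10 ± 0.089, SE) and Cntfr (0.15 ± 0.14) had the smallest p. Of the 6 measured STAT genes 0 passed, and Stat2 (0.055) and Stat6 (0.047) had the smallest p of the other 5.

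**Figure D2:**
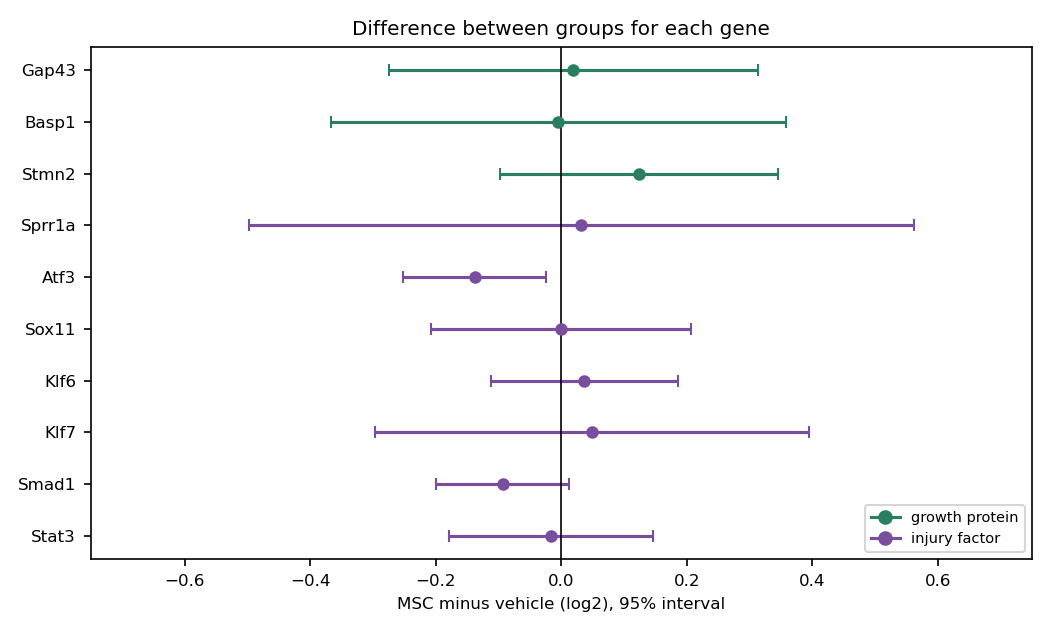
Difference between MSC and vehicle (x axis, log2) with its 95% interval for the 3 growth proteins (green) and 7 injury factors (purple). The intervals of 9 genes include 0; that of Atf3, from -0.25 to -0.024, does not, before any adjustment.

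The difference between MSC and vehicle in the mean over genes was 0.046 for the growth proteins and -0.019 for the injury factors, and whether these differ was not tested. As the mean deviation from each gene's own level, growth proteins ran from -0.13 to 0.31 in MSC arrays and from -0.21 to 0.39 in vehicle arrays, with replicate 7 the highest in each group. Injury factors ran from -0.17 to 0.22 in MSC and from -0.075 to 0.12 in vehicle arrays, with replicate 5 the highest in each group. MSC replicate 7 had the highest growth proteins of its group and the lowest injury factors.

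The spread between arrays differed among the 10 genes. The SD within groups was 0.52 for Sprr1a, 0.35 for Basp1, 0.34 for Klf7 and 0.28 for Gap43, against a median of 0.13 over all genes. Ranked among all genes, these 4 lay at the 99.3th, 96.8th, 96.1th and 92.9th percentiles of that SD. At the other end, Smad1 (0.072) and Atf3 (0.084) were among the least variable, at the 8.62th and 16.0th percentiles. A low SD is also what dim or compressed signal gives in RMA values. Atf3 was dim, while the mean of Smad1 lay at the 79.5th percentile of probe sets.

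**Figure D3:**
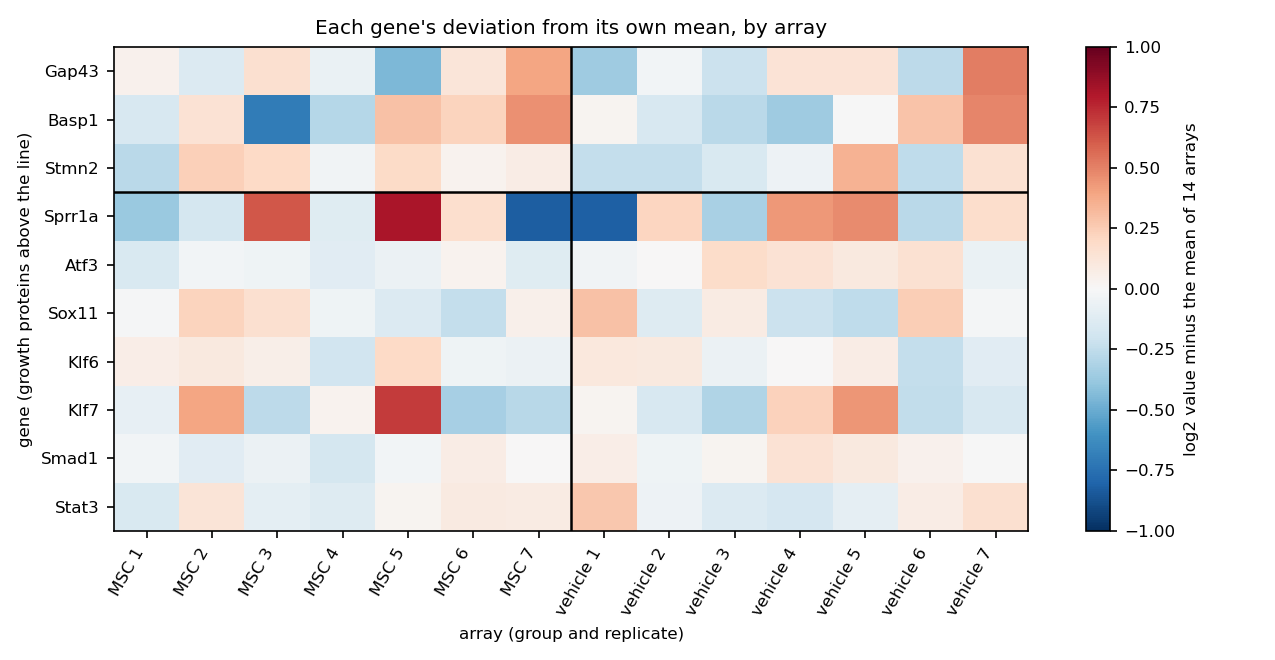
Deviation of each gene (rows) from its mean over 14 arrays, in log2 units (colour), for MSC arrays 1 to 7 (left of the line) and vehicle arrays 1 to 7 (right). Sprr1a, Basp1, Klf7 and Gap43 vary from array to array within both groups, and no column block separates the groups.

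Whether the genes vary together was examined over the 14 arrays after group means were removed, in 135 relations: 45 pairs of members and 90 with the means of 9 marker lists. None passed an adjusted p of 0.05 by Pearson's r or Spearman's rho (permutation within groups), and 13 had an unadjusted Pearson p below 0.05, 4 of them pairs of members. The closest pair was Basp1 and Stat3, with r = 0.70 (permutation p = 0.0052, adjusted p = 0.27) and rho = 0.72 (permutation p = 0.0065, adjusted p = 0.30), and r = 0.71 without MSC replicate 3 and vehicle replicate 7. Sprr1a and Sox11 had r = -0.59 (permutation p = 0.031, adjusted p = 0.42) and rho = -0.59 (permutation p = 0.031, adjusted p = 0.44), and r = -0.50 without MSC replicate 7 and vehicle replicate 1. Stmn2 and Sprr1a had r = 0.55 (permutation p = 0.049, adjusted p = 0.48) and rho = 0.59 (permutation p = 0.032, adjusted p = 0.44), and r = 0.46 without MSC replicate 1 and vehicle replicate 5. Klf6 and Klf7 had r = 0.56 (permutation p = 0.045, adjusted p = 0.48) and rho = 0.56 (permutation p = 0.041, adjusted p = 0.50), and r = 0.70 without MSC replicate 4 and vehicle replicate 6. Gap43 and Basp1, close in function, had r = 0.11 (permutation p = 0.71, adjusted p = 0.97) and rho = -0.024 (permutation p = 0.94, adjusted p = 0.99), and r = 0.012 without MSC replicate 5 and vehicle replicate 7.

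Against marker lists, Basp1 and the neuron mean had r = 0.71 (permutation p = 0.010, adjusted p = 0.27) and rho = 0.77 (permutation p = 0.0031, adjusted p = 0.30), and r = 0.64 without MSC replicates 3 and 5. Stat3 and the astrocyte mean had r = 0.71 (permutation p = 0.0071, adjusted p = 0.27) and rho = 0.54 (permutation p = 0.064, adjusted p = 0.66), and r = 0.45 without vehicle replicates 1 and 4. Stat3 also had an unadjusted p below 0.05 with other lists. With the microglia mean it had r = 0.68 (permutation p = 0.0100, adjusted p = 0.27) and rho = 0.65 (permutation p = 0.016, adjusted p = 0.35), and r = 0.51 without MSC replicate 1 and vehicle replicate 1. With the neuron mean it had r = 0.57 (permutation p = 0.028, adjusted p = 0.42) and rho = 0.65 (permutation p = 0.018, adjusted p = 0.35), and r = 0.70 without MSC replicates 3 and 5. With the striatal mean it had r = 0.53 (permutation p = 0.0083, adjusted p = 0.27) and rho = 0.64 (permutation p = 0.012, adjusted p = 0.35), and r = 0.59 without MSC replicate 6 and vehicle replicate 1. Sox11 had an unadjusted p below 0.05 with the astrocyte and microglia means, at r = 0.66 (permutation p = 0.017, adjusted p = 0.35; rho = 0.44, permutation p = 0.14, adjusted p = 0.85) and r = 0.55 (permutation p = 0.048, adjusted p = 0.48; rho = 0.43, permutation p = 0.13, adjusted p = 0.85). Without the farthest pair of arrays these were r = 0.43 and r = 0.48.

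None of the wider programme passed either. Over 12 lists of relatives, partners, other regeneration-associated genes and growth brakes, the 10 members left out, 114 genes were measured, and 0 passed; Junb among them is also in the immediate early list, which is not counted here. Of these, 59 had higher and 55 lower means in MSC (51.8% higher, against 47.6% of all genes), with a median of 0.0018 against -0.0038 over all genes. At an unadjusted p below 0.05 there were 3 (2.63%, against 2.77% of all genes): Id2 and Junb, given above, and Nfil3, a repressor of the regeneration programme. Without Junb, 2 of 113 genes (1.77%) remain. Nfil3 ran from 5.28 to 5.58 in MSC (median 5.42) and from 5.53 to 5.69 in vehicle arrays (median 5.58), a difference of -0.15 ± 0.053 (SE).

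Relatives of the growth proteins also overlapped between groups. Marcks and Marcksl1, which like GAP-43 and BASP1 bind the phosphoinositide PIP2 at the membrane, differed by 0.015 and 0.11. Stmn1, the ubiquitous stathmin, differed by -0.17 ± 0.091 (SE, unadjusted p = 0.077 in limma) and Stmn4 by -0.075, while Stmn2 lay above 0. That difference in sign within the family was not tested. Among 37 other regeneration-associated genes the median was 0.023, with 22 higher and 15 lower means (12 and 11 lower under the other scalings), and Dpysl3, a collapsin response mediator, came after Nfil3 at 0.19 ± 0.12 (SE). Of 11 measured growth brakes 0 passed, with a median of 0.025, and Tsc2, which restrains mTOR, and Klf4 had the smallest p, at 0.15 and -0.31. Deep layer and corticospinal markers, which mark the output neurons of this cortex, had a median of 0.043 over 9 genes, with Foxp2 at -0.12 and Bcl11b at 0.26.

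**Figure D4:**
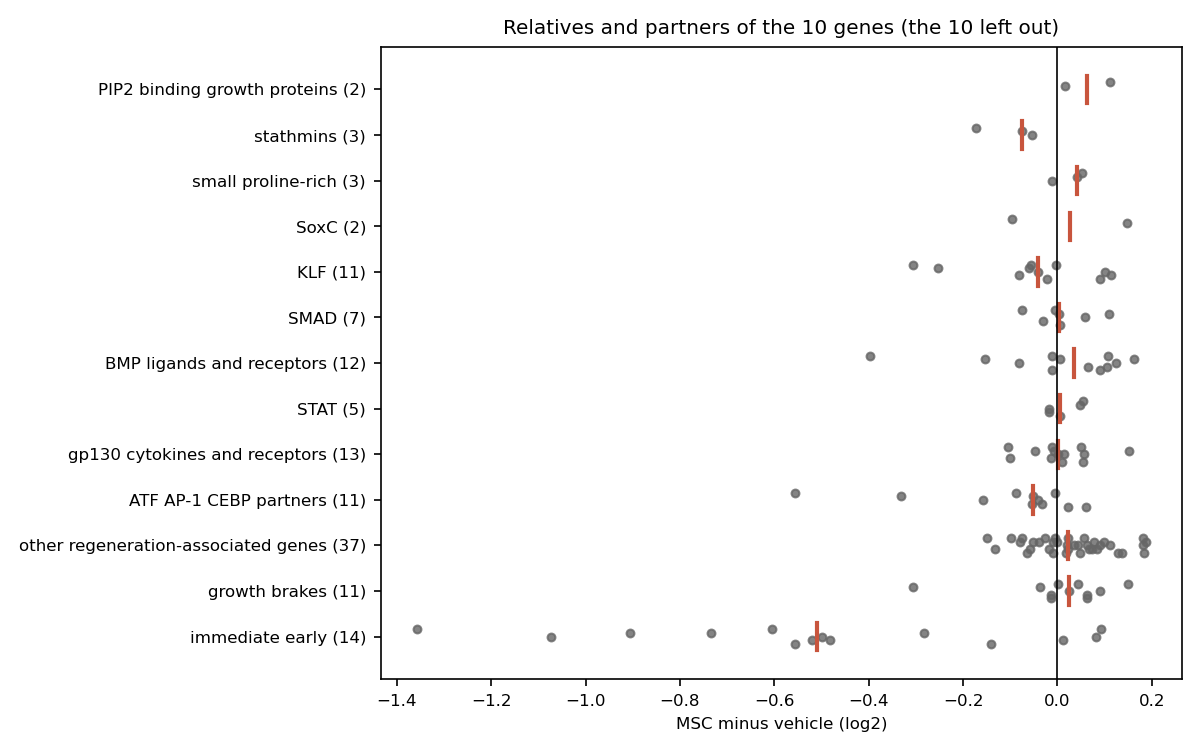
Difference between MSC and vehicle (x axis, log2) for each gene (points) of 13 lists, the 10 members left out, with the number of genes in brackets and the list median as a red bar. The 12 lists of the programme lie around 0, with medians between -0.075 and 0.064, while the immediate early list, which shares Junb with the ATF, AP-1 and C/EBP list, has a median of -0.51.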

How the data were processed

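Per the submitters' processing notes, the deposited log2 values come from RMA, run by the authors with Affymetrix Expression Console. Versions, settings and genome build were not given in the sources used here. In RMA, background is subtracted, array distributions are equalised and probes are summarised, which shrinks differences of dim probe sets. Per the labels' protocols, 100 ng of total RNA was labelled per array. Of 70580 probe sets, 1738 controls were left out. Of the 68842 tested, 23446 had exactly 1 symbol in the platform annotation, covering 22093 genes; a gene is represented by its probe set with the highest mean.

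All 7 MSC and 7 vehicle arrays, grouped by title, entered 1 fit (limma 3.58.1 under R 4.3.3, lmFit and eBayes) without covariates, and p-values were adjusted by Benjamini-Hochberg across the 68842 probe sets. The fit was tested on simulated data. The number of arrays limits the precision. Relations used 100000 permutations within groups. In the 12 lists of the programme and the deep layer list, the 2 genes with the smallest p, members aside, were named. In the other lists this was not done. Dusp1 (immediate early, MSC minus vehicle -1.36) and Pde10a (striatum, 0.58), for example, had the smallest p of their lists and are not described above. The 3 genes most alike to each member were named. Of 235 list entries, 226 matched a measured gene. Alternatives changed the scaling, filters, blocks, arrays and label of MSC replicate 7. Members and lists were chosen with earlier results of these data known. Promoter windows came from RefSeq (GRCr8).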

Additional observations from a re-analysis of the deposited data

How the results depend on the processing

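No alternative gave a call among the 10 genes: 0 passed the adjusted threshold in limma in each fit, with the smallest adjusted p among them at 0.942 (without vehicle replicate 1). Over all probe sets 1 passed within replicates 6 and 7, with 2 arrays per group, and 0 in every other fit. Differences of Stmn2, Atf3 and Klf6 kept their sign throughout, Atf3 not being measured once dim probe sets were left out. The other 7 genes had the opposite sign in some fits. The median of all probe sets, -0.015, became 0.0010 with equal array medians and 0.0028 after another quantile normalization. Equal medians subtract a constant from each array, so the difference of every probe set moved by the same amount. Basp1, Sox11 and Stat3 changed sign with it. After quantile normalization Sox11 moved by about as much, while Basp1 and Stat3 moved by less, and Stat3 stayed below 0 at -0.0092. The cause of the other sign changes was not tested. Basp1 was at 0.0020 after another quantile normalization, 0.011 with equal array medians, 0.012 within replicates 1 to 5 and 0.070 as the mean of its probe sets. Sox11 was at 0.015 under either scaling, 0.083 within replicates 1 to 5 and 0.035 without the 3 arrays of choroid or striatal signal. That alternative, and the one that leaves out MSC replicate 2 as well (Sox11 at -0.0061, Atf3 at -0.18, 0 genes passed), were chosen after seeing the data. Stat3 was at 5.7e-06 with equal medians. Gap43 was at -0.024 within replicates 1 to 5 and -0.095 with MSC replicate 7 counted as vehicle, where it set the median of the growth proteins. The count at an unadjusted p below 0.05, 1 gene, was 2 within replicates 1 to 5 (Atf3 and Smad1) and 0 within replicates 6 and 7, with MSC replicate 7 as vehicle and with dim probe sets left out. Within replicates 6 and 7, Sprr1a was at -0.28, Klf7 at -0.11 and Smad1 at 0.019. With 1 array left out, Gap43 ran from -0.044 (MSC replicate 7) to 0.11 (vehicle replicate 7), Basp1 from -0.082 (MSC replicate 7) to 0.11 (MSC replicate 3), Sprr1a from -0.10 (vehicle replicate 1) to 0.17 (MSC replicate 7), Sox11 from -0.043 (vehicle replicate 5) to 0.048 (vehicle replicate 1), Klf7 from -0.064 (MSC replicate 5) to 0.13 (vehicle replicate 5) and Stat3 from -0.046 (vehicle replicate 4) to 0.028 (vehicle replicate 1). The 2345 probe sets at an unadjusted p below 0.05 became 979 with dim ones left out, and the share of them lower in MSC, 70.6%, was 49.6% after another quantile normalization, 52.9% with equal medians and 47.9% within replicates 6 and 7. Same-numbered arrays correlated at -0.31 to 0.27 in their deviations, and 2 of 7 MSC arrays correlated best with their own number. With 7 such pairs, and arrays set apart by choroid plexus, striatal or meningeal signal among them, these values cannot decide whether the numbers pair the samples. With the replicate block 0 genes passed, and 2278 probe sets had an unadjusted p below 0.05. Atf3 was read from dim signal, where RMA shrinks differences. The median of the growth proteins ran from -0.044 to 0.11 and that of the injury factors from -0.064 to 0.028 with 1 array left out.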

Other observations

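For each member, the genes whose deviations from the group mean were most alike over the 14 arrays are given by Pearson's r, out of 13942 genes above the median signal (13943 for Atf3); with so many compared, values this high are a ranking only. For the growth proteins, Gap43 was nearest to Tmx1 (0.90), Klk2l (0.84) and LOC100909886 (0.84), Basp1 to Fth1-ps5 (0.96), Cdkn2aipnl (0.93) and Ajap1 (0.92), and Stmn2 to Usp4 (0.88), Pgam1-ps1 (0.87) and Tmem258l4 (0.86). Sprr1a was nearest to Camsap2 (0.85), Riiad1 (0.83) and Loxl3 (0.82), and Atf3 to Zfp830 (0.79), Pdrg1 (0.78) and Gnl3 (0.76). Sox11 came with Kit (0.89), Pak6 (0.88) and Atf7ip (0.86), Klf6 with the gp130 co-receptor Lifr (0.86), Baalc (0.85) and Slc17a5 (0.83), and Klf7 with Rnf44 (0.95), Vps37a (0.94) and Cbl (0.93). Smad1 came with Sycp2 (0.86), Fbh1 (0.85) and Cemip2 (0.85), and Stat3 with Ss18l1 (0.93), Eif3d (0.93) and Qsox2 (0.92). No member is among the nearest genes of another. Atf3 could not have been, as its mean lay just below the median signal.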
